A study of Caenorhabditis elegans with 18 samples.

Results

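The first hours of growth of fed Caenorhabditis elegans larvae were followed in 4 of the 18 conditions of the series, chosen as the larvae that hatched with food and were collected at 0, 1, 3 and 6 h after hatching. All animals were the wild-type strain N2, and the sample titles give these 4 conditions as L1, the first of the larval stages. Embryos hatched in S-complete, a buffered liquid medium, with Escherichia coli HB101 bacteria at 25 mg/ml as food, at 20 °C, in cultures of 10 ml with 10000 larvae. The time 0 h was set at 50% hatched, within a hatching window of 2.5 h, so the sample labelled 0 h can hold embryos about to hatch. Larvae hatched in the same medium without bacteria and collected at 6 h and 0 h, of the same strain, density and temperature, serve as the comparison for the change with time. Whole animals were pooled, so the values are averages over all tissues, and in such samples fewer cells of a type and less RNA per cell cannot be told apart.

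A worm embryo builds its first cuticle before it hatches, with secreted collagens, hedgehog-related proteins and proteases of the astacin family. The hatched larva does not grow on its yolk store alone: with food it enlarges and its blast cells resume division, and without food it halts in the first larval stage until it is fed. Growth calls on the machinery of protein synthesis, which comprises the ribosome, the nucleolar factors that assemble it, initiation and elongation factors and the enzymes that charge transfer RNA. The intestine is both gut and fat store, and it makes digestive enzymes, fatty acids and the enzymes that handle propionate and vitamin B12. Insulin-like peptides and their receptor DAF-2 hold the FoxO transcription factor DAF-16 in check when food is present.

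Each value is the deposited mean intensity of 3 arrays on Affymetrix C. elegans arrays, 1 array from each of 3 culture series, with the error that was deposited beside it. The 4 fed conditions were measured on 12 of the 54 arrays. Within each of the 3 culture series all 4 times were hybridized on the same day. The median intensity over 22548 worm probe sets was 39.7 at 0 h, 41.2 at 1 h, 38.3 at 3 h and 35.9 at 6 h. Between 11596 and 12121 probe sets passed the detection threshold of the authors (a detection p under 1e-10) in each fed condition, with errors that were 9.13% to 10.7% of the level at the median. The highest intensity of a condition was 16027 at 0 h, 12269 at 1 h, 10953 at 3 h and 9322 at 6 h. This maximum, of 1 probe set per condition, was lower at each later time.

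The marker lists showed that all the tissues named here gave signal. At 0 h or 6 h, 39 of 40 body wall muscle markers, 35 of 38 neuronal markers, 18 of 20 pharynx markers and 23 of 25 intestinal markers were detected. The germ line, which at hatching is a few precursor cells, had 18 of 42 markers detected. Early embryo markers had 7 of 27 detected, and their summed intensity was 1597 at 6 h and 2083 at 0 h. The hatching protease gene hch-1 had 146, 96.4, 80.3 and 77.3 at 0, 1, 3 and 6 h and did not pass the test (log2 -0.91 ± 0.62, adjusted p = 0.325). The part of unhatched embryos in the results was not tested.

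In the first 6 h of fed growth, many genes of protein synthesis, protein turnover and fat synthesis rose. Many genes of the cuticle and muscle, and some of the pharynx, fell. The test divided the difference of the means at 6 h and 0 h by their combined deposited errors, with a t distribution of 4 degrees of freedom. It took these means as independent, although both times came from the same 3 culture series. Adjusted by the Benjamini-Hochberg method over all 22548 probe sets, it called 0 probe sets (0%), although 5110 had an unadjusted p under 0.05, and the smallest adjusted p was 0.0781. Restricted to the 12769 probe sets detected at 0 h or 6 h, the same test called 1385 (10.8%), of which 706 were higher at 6 h (5.53%) and 679 lower (5.32%). This restriction was taken up as the basis of the text after the test over all probe sets had called 0, and below, "rose" and "fell" refer to its calls. Their adjusted p lay close to the threshold, at 0.0442 or above, and with every error raised to at least 10% of its mean 0 remained.

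A second count, also chosen after the data were seen, is given beside it, from a slope over the 4 times on log2(hours + 1), weighted over the means and tested with the same errors and 8 degrees of freedom. The slope called 4314 of the 22548 probe sets (19.1%), 2382 higher (10.6%) and 1932 lower (8.57%), and the 1385 were all among them. This overlap is in part built in, since both tests use the 0 h and 6 h means. Without the 0 h sample this slope called 335, and without the 6 h sample 155. Both counts rest on the deposited errors, and whether these hold the variation among cultures is not known. With 1 probe set per gene, the brightest, 563 of 17460 genes rose and 507 fell, and by the slope 1878 were higher and 1428 lower. The median log2 difference between 6 h and 0 h was 0.00 over these genes and 0.07 over the 9676 detected ones.

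**Figure D1:**
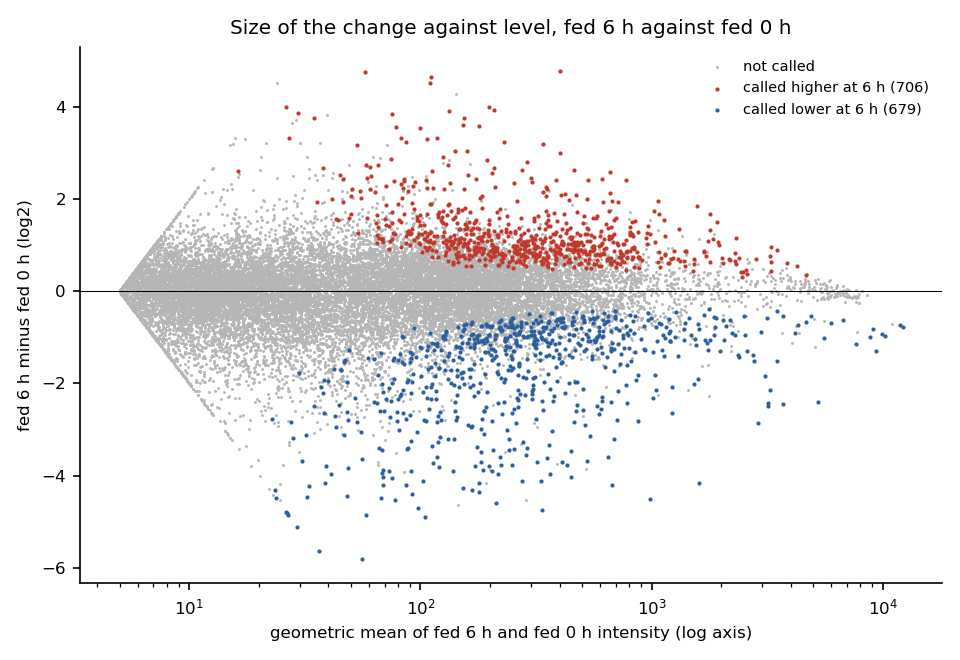
Each point is a probe set, with the geometric mean of its fed 6 h and fed 0 h intensity on the horizontal log axis and its log2 difference, fed 6 h minus fed 0 h, on the vertical axis. Red points are the 706 called higher and blue points the 679 called lower among detected probe sets, and the grey edges that spread from the left end are probe sets at the floor of 5 in 1 of the conditions.

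The largest rises were of genes that were not detected at 0 h, several of them enzymes of fatty acid breakdown. Such genes passed the filter on detection only through the 6 h sample. Each also passed the slope, which has no such filter. The slope uses the same 0 h and 6 h means and errors, so it is no separate support. The acid phosphatase family gene pho-11 had 77.0 ± 19.9 at 0 h, 298 ± 45.1 at 1 h, 1444 ± 100.1 at 3 h and 2097 ± 139 at 6 h, a log2 difference of 4.77 ± 0.38 (propagated error; adjusted p = 0.0442). Each level lay above the one before it by more than both errors. The mucin-like gene dpy-6, which shapes the body, had 11.2 ± 5.83 at 0 h, 59.1 ± 12.1 at 1 h, 131 ± 18.7 at 3 h and 299 ± 38.0 at 6 h (log2 4.74 ± 0.78). At 12 h its level was back at 10.7, while pho-11 remained at 1767. The peroxisomal acyl-CoA oxidase gene acox-1.2 had 22.2 ± 6.78 at 0 h, 43.7 ± 9.25 at 1 h, 182 ± 35.2 at 3 h and 552 ± 60.9 at 6 h (log2 4.64 ± 0.47), and most of its gain came after 1 h. The arginine kinase gene argk-1, which buffers energy as phosphoarginine, had 23.2 ± 7.89 at 0 h, 40.1 ± 10.1 at 1 h, 169 ± 24.1 at 3 h and 527 ± 48.1 at 6 h (log2 4.51 ± 0.51) and went on to 1217 at 12 h.

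Series of 4 values here and below are mean intensities at 0, 1, 3 and 6 h, and log2 marks the difference of 6 h and 0 h with its propagated error. Of the 15 genes with the largest rises, 15 were detected at 6 h and 0 at 0 h, so the size and the rank of each rise rest on an undetected level. pugs-2 had 53.2, 58.2, 138 and 812 at 0, 1, 3 and 6 h (log2 3.93 ± 0.44), with the step from 3 to 6 h the largest of the course. The acyl-CoA dehydrogenase gene acdh-2 had 19.9, 27.5, 122 and 287 (log2 3.85 ± 0.37), and the enoyl-CoA hydratase gene ech-7 had 22.8, 41.9, 112 and 270.2 (log2 3.57 ± 0.54). Both belong to fatty acid breakdown. The sulfurtransferase gene mpst-7 had 7.73, 14.5, 48.0 and 113 (log2 3.87 ± 0.69), and cpg-9, of the chondroitin proteoglycans, had 9.49, 27.8, 86.2 and 128 (log2 3.75 ± 0.69). The antimicrobial peptide gene cnc-3 stayed level to 1 h and then climbed, with 43.9, 43.4, 215 and 533 (log2 3.60 ± 0.49). lon-1, a secreted regulator of body length that acts downstream of the TGF-beta ligand DBL-1, had 52.0, 92.9, 367 and 619.6 (log2 3.57 ± 0.41). The others were pud-3 (log2 3.90), the alpha-tubulin gene tba-8 (log2 3.31), the infection response gene irg-5 (log2 3.29) and meic-1 (log2 3.24). Their adjusted p ran up to 0.0494.

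**Figure D2:**
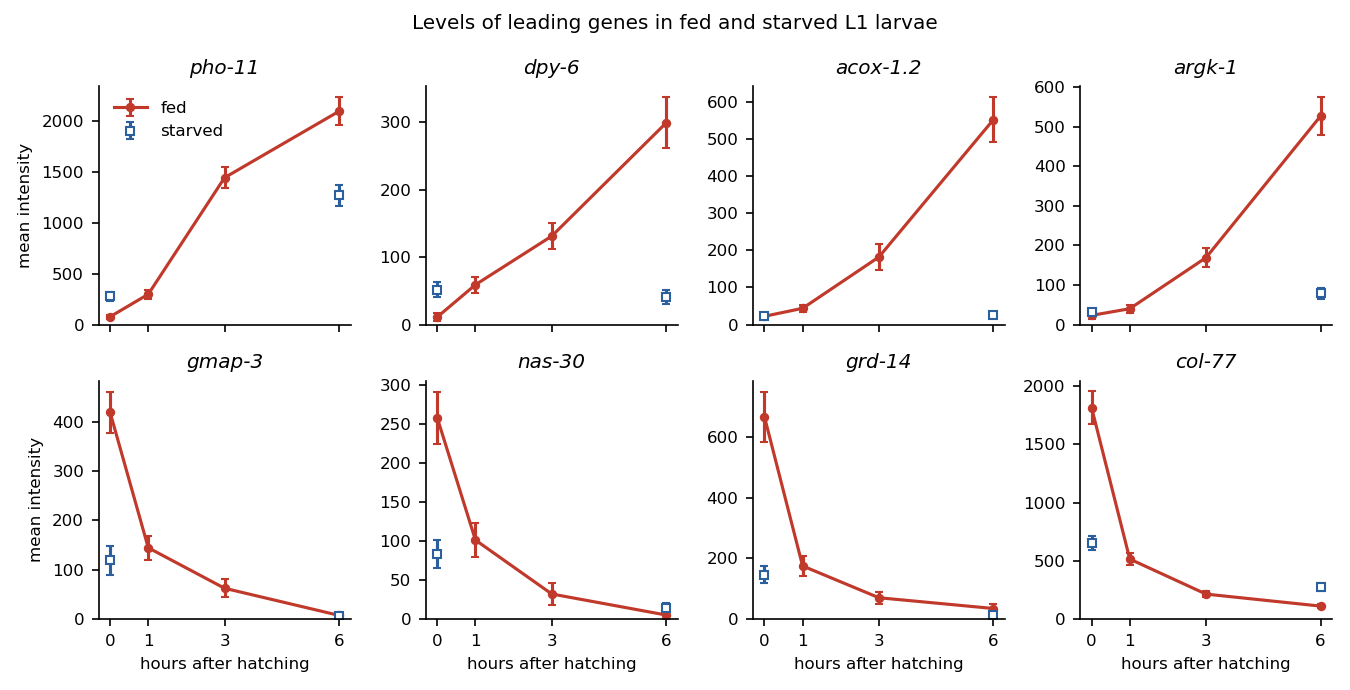
Mean intensity against hours after hatching for 8 genes, with fed larvae as red circles at 0, 1, 3 and 6 h and starved larvae as open blue squares at 0 and 6 h; bars are the deposited errors. The upper row rises in fed larvae (pho-11 reaches 2097 at 6 h), and the lower row falls, with gmap-3 at 7.48 at 6 h.

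Astacin proteases, collagens and nematode-specific peptides were among the largest falls. The collagen genes col-58, col-97 and col-104 and the astacin gene nas-30 (411) stood higher still in embryos before hatching. There nas-5 (72.2) and nspb-6 (179.5) stood lower than at 0 h. The embryo levels of nas-38 (325) and nspb-11 (498) were below those at 0 h by less than the 0 h error. gmap-3 had 419 ± 41.6 at 0 h, 144 ± 23.8 at 1 h, 62.4 ± 18.5 at 3 h and 7.48 ± 5.33 at 6 h (log2 -5.81 ± 1.04, adjusted p = 0.0442), and before hatching, in embryos collected 2 h earlier, it stood at 1401. The astacin protease gene nas-30 had 258 ± 33.3 at 0 h, 101 ± 21.4 at 1 h, 32.2 ± 13.7 at 3 h and 5.19 ± 4.98 at 6 h (log2 -5.63 ± 1.40), which ended near the floor of 5 to which the authors raised low values. Another astacin gene, nas-38, had 373, 226, 109 and 20.2 (log2 -4.21 ± 0.77), and nas-5 had 104, 22.1, 9.74 and 5.29 (log2 -4.30 ± 1.12). On the log2 scale none of these 3 astacin genes passed, with adjusted p of 0.0719 for nas-30, 0.0503 for nas-38 and 0.0769 for nas-5. The hedgehog-related gene grd-14 had 666 ± 82.0 at 0 h, 175 ± 32.3 at 1 h, 70.2 ± 19.2 at 3 h and 34.8 ± 13.5 at 6 h (log2 -4.26 ± 0.59), and most of its loss in intensity was complete by 1 h. At 12 h grd-14 was at 919, above its level at hatching.

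Cuticle collagen genes and a pair of nematode-specific peptide genes were also among the 15 largest falls. col-104 had 762, 274, 96.0 and 42.4 (log2 -4.17 ± 0.44), col-97 had 748, 418, 162 and 37.5 (log2 -4.32 ± 0.59) and col-58 had 163, 41.0, 14.4 and 9.17 (log2 -4.15 ± 0.74). The values of col-97 are from its probe set with the largest fall, which is not its brightest. nspb-11 had 568, 200.4, 62.0 and 19.2 (log2 -4.88 ± 0.76) and nspb-6 had 312, 108, 18.8 and 10.7 (log2 -4.86 ± 0.78). phat-2, of the pharyngeal gland toxin-related family, had 372, 113, 58.2 and 16.2 (log2 -4.52 ± 0.79), and abu-7, a glutamine- and asparagine-rich protein gene, had 1386, 481, 249.9 and 79.8 (log2 -4.12 ± 0.51). The cytochrome P450 gene cyp-34A2 (log2 -4.22), the venom allergen-like gene vap-2 (log2 -4.48) and dct-5 (log2 -4.85) completed the list. Of these 15 genes, 15 were detected at 0 h and 0 at 6 h, so these falls likewise rest on an undetected level.

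By their means, most called probe sets moved one way through the course, with part of the change present at 1 h. The calls had used the 0 h and 6 h means, so this is in part built in. The share of such courses over all detected probe sets was not counted. Of the 706 rises 615 moved upward in all 3 intervals, and of the 679 falls 636 moved downward in all 3. Their median step was 0.34 from 0 to 1 h, 0.47 from 1 to 3 h and 0.25 from 3 to 6 h for rises, and 0.38, 0.55 and 0.43 downward for falls. At 1 h a median of 32.6% of the log2 rise and 28.5% of the log2 fall was present, and at 3 h 78.1% and 68.1%. By design each single interval was also tested, and 0 probe sets passed in any of them (0%), with 726 unadjusted p under 0.05 from 0 to 1 h, 1079 from 1 to 3 h and 611 from 3 to 6 h. The p-values of the authors' deposited table for these pairs gave 948, 1573 and 1241 under 0.05 and 0 after adjustment. A contrast for levels that left and returned, 1 h and 3 h against 0 h and 6 h, also called 0 (0%), with 908 unadjusted p under 0.05. No genes are named from these tests.

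A group of 107 rises and 42 falls had at least 50% of the log2 change in place at 1 h, and 10 rises and 2 falls had under 25% at 3 h. Early rises included the BTB-domain gene btb-14 (15.0, 47.0, 94.3 and 95.4 at 0, 1, 3 and 6 h), the bestrophin channel gene best-8 (6.60, 29.3, 45.7 and 40.4) and the C-type lectin gene clec-1 (229.6, 531, 1232 and 1217). The pharyngeal gland genes phat-7 (42.1, 96.7, 143 and 206) and phat-3 (41.6, 94.8, 130.3 and 187) were early too, while phat-2 fell. Early falls were grd-6 (163, 37.0, 16.2 and 10.4) and the patched-related genes ptr-20 (287, 87.7, 40.2 and 27.0) and ptr-23 (405, 209, 188 and 117). The late group had made little of its change by 3 h. It held tba-8 (26.2, 22.6, 29.8 and 261), the intermediate filament gene mua-6 (234, 235, 231 and 748), which anchors the skin to the cuticle, and fkb-5 (132, 99.3, 143 and 513), a prolyl isomerase of the endoplasmic reticulum. The alpha-galactosidase gene gana-1 (109, 87.1, 102 and 213), daf-25 (143, 162, 175 and 331) and rml-4 (49.0, 52.8, 63.0 and 232) were the other late ones named. These groups use the same means that gave the calls, so they describe the course and have no test.

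Levels before and after the course were set beside those within it, without a test. The calls had used the 6 h and 0 h values, so part of any difference from 12 h or from embryos is built in. Of the 679 falls 132 were at least 2-fold higher again at 12 h than at 6 h, and 28 were at least 2-fold lower. Among the 706 rises these numbers were 11 and 28. At 0 h 90 of the falling probe sets stood at least 2-fold above their level in embryos before hatching and 112 at least 2-fold below it, against 65 and 4 of the rising ones.

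Genes of the ribosome's own proteins gave no calls, while many factors that build and run it were higher. Of 72 cytosolic ribosomal protein genes (71 detected) 0 rose and 0 fell, and by the slope 5 were higher and 1 lower. Their median log2 difference at 6 h was 0.00 (0.14 under quantile normalization) and single genes spanned -0.25 to 0.31. Among those passing the slope were rps-18 with 3574, 3885, 4225 and 4419.9 and rps-25 with 7429, 6681, 6308 and 6312 at 0, 1, 3 and 6 h. These are among the brighter signals of the array.

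Ribosome biogenesis genes, most of them nucleolar, were higher mainly by the slope, with the largest median at 3 h. Of 51 genes 4 rose and 0 fell, and 41 were higher and 0 lower by the slope, with a median of 0.37 at 1 h, 0.78 at 3 h and 0.64 at 6 h. The 4 that rose were the exosome gene exos-2 (93.6, 146, 187 and 183, log2 0.97 ± 0.16), garr-1 (612, 814, 1153 and 1157, log2 0.92 ± 0.18) and nol-58 (863, 1220.5, 1707 and 1505, log2 0.80 ± 0.15), both of nucleolar RNA-protein particles, and the helicase gene ruvb-2 (278, 409.8, 588 and 519, log2 0.90 ± 0.13). All but garr-1 were highest at 3 h. fib-1, the fibrillarin gene that methylates ribosomal RNA, had 3135, 3951, 4560.2 and 4291 and was higher by the slope only (adjusted p = 0.0317, against 0.0924 for 6 h against 0 h).

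Translation factors and tRNA synthetases rose in greater shares. Of 47 translation factor genes 20 rose and 1 fell (32 and 2 by the slope), with a median of 0.72. The initiation factor genes eif-2A (184, 356, 565 and 567, log2 1.63 ± 0.24), eif-3.H (33.7, 65.4, 94.8 and 102, log2 1.59 ± 0.27), eif-3.C (429.8, 691, 973 and 989, log2 1.20 ± 0.15) and egl-45 (451, 688, 959.7 and 999.5, log2 1.15 ± 0.19) led. The gene that fell was ifa-1 (1053, 793, 555 and 394, log2 -1.42 ± 0.15), an intermediate filament gene that the list holds although it is no translation factor. Of 20 cytosolic tRNA synthetase genes, which attach amino acids to their transfer RNAs, 15 rose and 0 fell (17 and 0 by the slope). The median was 0.31 at 1 h, 0.72 at 3 h and 0.91 at 6 h. The enzymes for lysine, kars-1 (403, 702, 1177 and 1169.8, log2 1.54 ± 0.25), methionine, mars-1 (277, 404, 634 and 715, log2 1.37 ± 0.18), phenylalanine, fars-1 (307, 442, 639 and 741, log2 1.27 ± 0.16), and threonine, tars-1 (300.3, 422, 600.4 and 683, log2 1.19 ± 0.18), had the largest rises. All 20 were above their 0 h level at 6 h.

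The proteasome, the protease complex that degrades tagged proteins, had its largest median at 6 h. Of its 33 genes (32 detected) 21 rose and 0 fell, and 31 were higher by the slope. Its median was 0.13 at 1 h, 0.61 at 3 h and 0.99 at 6 h. The core subunit gene pas-7 had 78.7, 113, 179.9 and 269 (log2 1.77 ± 0.26), pas-1 had 156, 211, 343 and 473 (log2 1.60 ± 0.17), pas-6 had 414, 530.4, 792 and 1088 (log2 1.39 ± 0.11) and pbs-2 had 248, 295, 406 and 605 (log2 1.29 ± 0.22). All but pas-1 gained most intensity from 3 to 6 h.

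Some folding and secretion genes rose as well. Of 42 chaperone genes 13 rose and 1 fell (21 and 1 by the slope), with a median of 0.59. The mitochondrial chaperonin gene hsp-60 had 487, 691, 1163 and 1389 (log2 1.51 ± 0.30), the HSP90 co-chaperone gene ahsa-1 had 529, 689, 862 and 1079 (log2 1.03 ± 0.13), dnj-13 had 186, 225, 248 and 369 (log2 0.99 ± 0.17) and hsp-75 had 123, 138, 189 and 239.7 (log2 0.96 ± 0.17). The small heat shock protein gene hsp-12.2 fell, with 1465, 1506, 952 and 603 (log2 -1.28 ± 0.18). Of 36 genes of protein secretion, which carry new proteins into the endoplasmic reticulum and on to the Golgi, 15 rose and 0 fell (28 and 0 by the slope). They were led by trap-1 (423, 476, 614 and 923, log2 1.13 ± 0.15), the channel gene sec-61.A (715, 820.1, 1084 and 1494, log2 1.06 ± 0.12), ribo-1 (339, 359.6, 485 and 629.9, log2 0.90 ± 0.12) and copa-1 of the COPI coat (284, 330.2, 403 and 514, log2 0.85 ± 0.15). Their median was 0.09 at 1 h and 0.32 at 3 h, and 0.64 at 6 h.

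**Figure D3:**
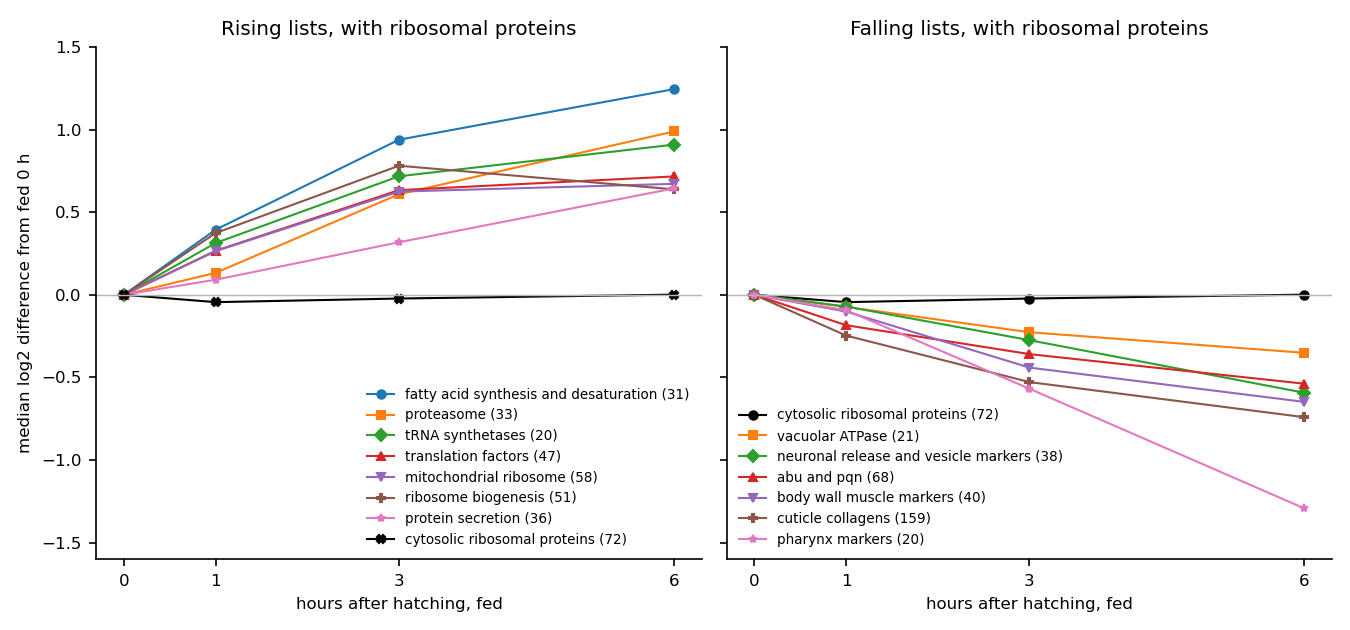
Median log2 difference from fed 0 h (vertical axis) at 1, 3 and 6 h after hatching in fed larvae for rising lists on the left and falling lists on the right, with the number of genes in brackets. Ribosome biogenesis reaches 0.78 at 3 h and the proteasome 0.99 at 6 h, while cytosolic ribosomal proteins lie at -0.04 at 1 h, -0.02 at 3 h and 0.00 at 6 h.

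Mitochondrial ribosome genes were higher mainly by the slope, and respiratory chain genes gave no calls. Of 58 mitochondrial ribosome genes 7 rose and 0 fell, and 44 were higher by the slope, with a median of 0.67. mrps-15 had 131, 212, 276 and 299.6 (log2 1.19 ± 0.16) and mrps-35 had 91.2, 129.6, 167 and 193 (log2 1.08 ± 0.18). Of 43 respiratory chain genes 0 rose and 0 fell, 14 were higher by the slope, and the median was 0.18. The complex I gene gas-1, higher by the slope, had 605, 689, 745 and 832. Of 21 subunit genes of the vacuolar ATPase, the proton pump of lysosomes and other organelles, 0 rose and 4 fell (0 and 11 by the slope), such as vha-2 (4466, 3848, 3326 and 3058, log2 -0.55 ± 0.07) and vha-17 (1782, 1552, 1363 and 1183, log2 -0.59 ± 0.09).

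Some genes of splicing and nucleotide synthesis rose. Of DNA replication and mitosis genes a minority were higher, and by the slope only, which called 1868 of the 9676 detected genes higher. Of 43 spliceosome genes 10 rose and 0 fell (25 and 0 by the slope), among them prp-19 (80.5, 103, 221 and 245, log2 1.61 ± 0.26), rnp-3 (102, 151, 225 and 284, log2 1.47 ± 0.25) and eftu-2 (442, 575, 875 and 971, log2 1.14 ± 0.12). Of 23 nucleotide synthesis genes 4 rose and 0 fell (11 and 0 by the slope): the adenylosuccinate lyase gene adsl-1 (70.7, 128, 194 and 217, log2 1.62 ± 0.21), the adenylate kinase gene let-754 (333, 497, 751 and 995, log2 1.58 ± 0.19), dhod-1 of pyrimidine synthesis (log2 0.67 ± 0.13) and ndk-1 (log2 0.55 ± 0.08). Of 46 DNA replication genes 0 rose or fell, 16 were higher by the slope, and the median was 0.50 at 3 h and 0.54 at 6 h. By the slope the polymerase genes pola-1 (81.6, 115, 153 and 162) and pole-1 (111, 179, 209.5 and 202) and the thymidylate synthase gene tyms-1 (172, 211, 314 and 315) were higher. The ribonucleotide reductase gene rnr-1 was higher by the slope (adjusted p = 0.0244) with 326, 461, 592 and 517, and the helicase gene mcm-7 (826, 927, 1067 and 970.1) and the clamp gene pcn-1 (591, 678, 919.5 and 753) passed neither test.

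Of 64 mitosis genes 0 rose or fell, and 16 were higher and 1 lower by the slope. The condensin genes smc-4 (95.9, 147, 207 and 243) and capg-1 (56.1, 88.2, 113 and 135) were among the higher ones and the lamin gene lmn-1 (1434, 1322, 1124 and 956) was the lower one. Of 36 cell cycle control genes 0 rose or fell, and 4 were higher and 1 lower by the slope, the higher ones including the cyclin gene cya-1 (40.4, 65.9, 90.6 and 131) and lin-35, the retinoblastoma homologue (98.4, 139, 171 and 188, adjusted p = 0.0219). The G1 cyclin gene cyd-1 had 116, 154, 183 and 187 (adjusted p = 0.0572 by the slope), cdk-4 had 117, 117, 124 and 129.8, and the kinase inhibitor gene cki-1 had 355, 315, 303 and 355. None of these 3 passed. cye-1 was not detected at 0 h or 6 h. Of 56 histone genes 3 rose and 1 fell, all linker histones: hil-2 (452, 482, 947 and 854, log2 0.92 ± 0.17), hil-3 (log2 0.72 ± 0.12) and his-24 (log2 0.66 ± 0.10) rose, and hil-7 fell (1822, 1156, 719 and 339, log2 -2.42 ± 0.31). Near-identical core histone copies can share probe sequence.

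Some genes of fatty acid synthesis rose and none fell. Of 31 fatty acid synthesis and desaturation genes (29 detected) 12 rose and 0 fell (20 and 0 by the slope). The median was 0.39 at 1 h, 0.94 at 3 h and 1.25 at 6 h. The elongase gene elo-6, which acts in branched-chain fatty acid synthesis, had 271 ± 23.4 at 0 h, 542 ± 60.5 at 1 h, 1173 ± 71.2 at 3 h and 1626 ± 96.0 at 6 h (log2 2.58 ± 0.15). Its partner elo-5 had 261 ± 27.7 at 0 h, 396 ± 41.8 at 1 h, 929.5 ± 94.1 at 3 h and 1414 ± 153 at 6 h (log2 2.44 ± 0.22). In both each level lay above the one before it. The hydroxysteroid dehydrogenase family gene let-767 had 342, 446, 934 and 1323 (log2 1.95 ± 0.11), and the desaturase gene fat-2, needed for polyunsaturated fatty acids, had 365, 691, 1196 and 1408 (log2 1.95 ± 0.29). The stearoyl-CoA desaturase gene fat-7 had 32.5, 105, 286 and 626 (log2 4.27 ± 0.52), with an adjusted p of 0.0571 for 6 h against 0 h and 0.00899 by the slope.

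Fatty acid breakdown was mixed. Of 73 genes 15 rose and 4 fell (19 and 10 by the slope), with a median of 0.01, and of 0.27 over its 56 detected genes. Beside acox-1.2, acdh-2 and ech-7 above, acdh-1 of the propionate shunt rose, with 112, 109, 486 and 1024 (log2 3.19 ± 0.33). The carnitine palmitoyltransferase gene cpt-1, which brings long fatty acids into mitochondria, fell (376, 374, 200.1 and 179.8, log2 -1.06 ± 0.17), as did acox-3 (1064, 731, 537 and 528, log2 -1.01 ± 0.13), acox-1.5 (log2 -1.85 ± 0.35) and the acyl-CoA synthetase gene acs-7 (log2 -1.45 ± 0.27). Of 24 genes of the propionate shunt and the vitamin B12 branch 10 rose and 1 fell (15 and 2 by the slope). The methionine synthase gene metr-1 had 67.3, 129, 272 and 384 (log2 2.51 ± 0.35), mthf-1, which makes its folate substrate, had 96.2, 160.2, 303 and 459.9 (log2 2.26 ± 0.26), and hphd-1 of the shunt had 222, 167, 407 and 869.9 (log2 1.97 ± 0.20). The methylmalonyl-CoA mutase gene mmcm-1, of the B12-dependent route, fell (435, 356, 299.7 and 315, log2 -0.47 ± 0.08). The nuclear receptor gene nhr-68, which acts on the shunt, rose (127, 113, 208 and 270.5, log2 1.09 ± 0.17).

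Of 17 genes of lipid binding proteins 5 rose and 1 fell (8 and 2 by the slope). lbp-2 had 143, 362, 922 and 1139.7 (log2 2.99 ± 0.27), far-8 had 33.7, 68.7, 97.6 and 176 (log2 2.38 ± 0.36) and far-2 had 358, 580.3, 1112 and 1197 (log2 1.74 ± 0.26), while lbp-5 fell (1093, 832, 650.2 and 568, log2 -0.95 ± 0.11). Of the 6 yolk protein genes 2 were detected and 0 rose or fell, and the slope called 0. Sugar metabolism moved less as a list. In the glyoxylate cycle, gluconeogenesis and trehalose list 1 of 18 genes rose, pck-2 (2219.5, 2469, 2459.5 and 2745, log2 0.31 ± 0.06), and 2 fell, the glyoxylate enzyme gene icl-1 (3065, 1458, 738 and 824, log2 -1.89 ± 0.40) and the trehalase gene tre-3 (293, 227, 126 and 98.5, log2 -1.57 ± 0.19). By the slope 4 were higher and 5 lower. Of 17 glycolysis genes 0 rose and 1 fell, the phosphofructokinase gene pfk-1.1 (815, 737, 586 and 518, log2 -0.65 ± 0.07), with 1 higher and 3 lower by the slope.

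**Figure D4:**
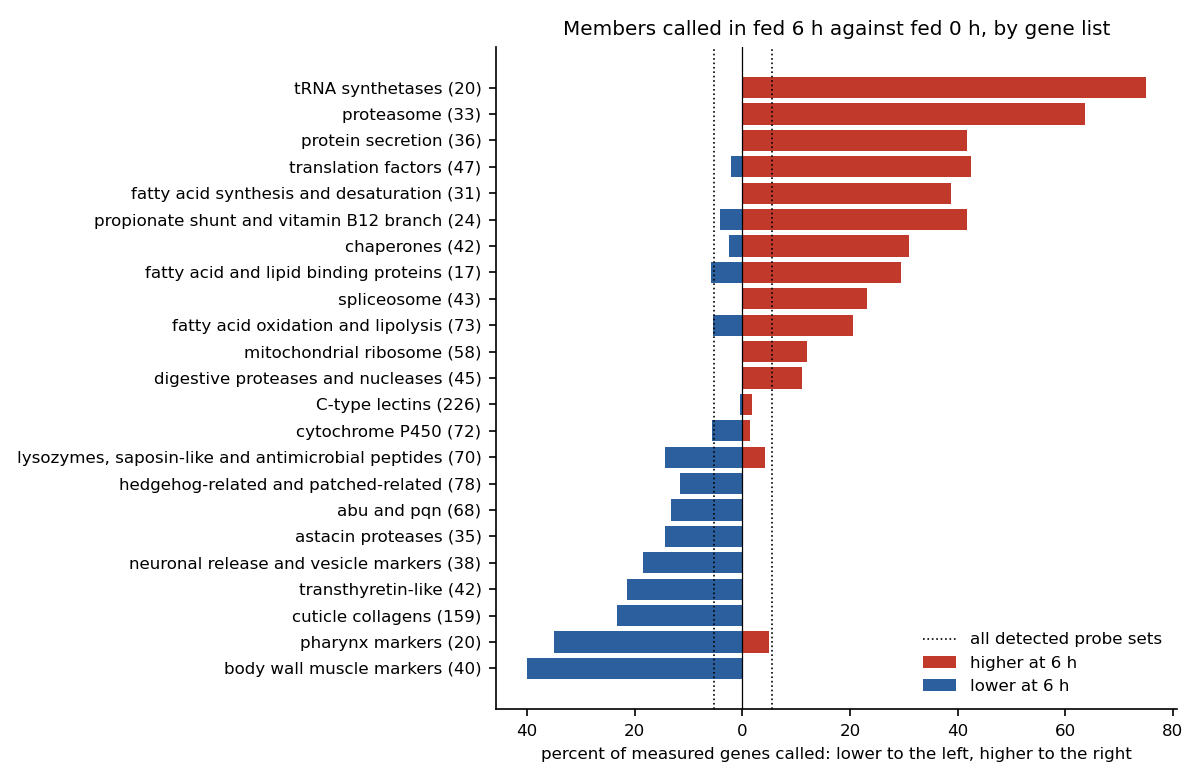
Percent of the measured genes of each list called higher (red, to the right) or lower (blue, to the left) in fed 6 h against fed 0 h, for lists with at least 5 called genes; the number of genes is in brackets and dotted lines mark 5.53% and 5.32%, the shares of all detected probe sets. The bars count the undetected genes of a list, which could not be called, and the lines leave such probe sets out. Lists with many undetected genes therefore lie low against the lines. Proteasome genes have 21 of 33 called higher and body wall muscle markers 16 of 40 called lower.

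Many cuticle collagen genes fell after hatching. Of 159 collagen genes (101 detected) 0 rose and 37 fell, and 2 were higher and 62 lower by the slope. The median was -0.25 at 1 h, -0.53 at 3 h and -0.74 at 6 h (-0.96 over the detected genes), and the summed intensity was 106990.0 at 6 h and 227000.0 at 0 h. Beside the collagen genes above, col-77 had 1814 ± 140.1 at 0 h, 515 ± 49.5 at 1 h, 214 ± 27.0 at 3 h and 111 ± 18.2 at 6 h (log2 -4.03 ± 0.26) and col-109 had 854, 482, 184 and 55.0 (log2 -3.96 ± 0.55). The pair higher by the slope were col-98 (445, 866, 1554 and 1456) and col-103 (467, 947, 1532 and 1374). The collagen gene dpy-7, which is made ahead of each moult, was not detected at 0 h or 6 h, with 42.9, 36.9, 13.6 and 108, and stood at 627 at 12 h.

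Other apical matrix families also had falls. Of 78 hedgehog- and patched-related genes 0 rose and 9 fell (0 and 18 by the slope), including grl-1 (137, 59.0, 31.7 and 15.9, log2 -3.11 ± 0.66). Of 35 astacin protease genes 5 fell and 0 rose (9 and 0 by the slope), with nas-7 (365, 219, 116 and 40.8, log2 -3.16 ± 0.39) beside those named above. Of 68 abu and pqn genes 9 fell and 0 rose (19 and 2 by the slope), among them abu-15 (1143, 356, 190.2 and 66.5, log2 -4.10 ± 0.54) and abu-10 (825, 556, 341 and 60.3, log2 -3.77 ± 0.56). Of 35 moulting and apical matrix genes 2 rose and 2 fell (3 and 5 by the slope). The matrix gene let-653 (27.5, 33.5, 68.2 and 202, log2 2.88 ± 0.47) and the megalin homologue lrp-1 (264, 312, 439.6 and 501, log2 0.92 ± 0.15) rose, and the cuticlin gene cut-2 (2332, 1136, 451 and 330.1, log2 -2.82 ± 0.27) and the peroxidase gene mlt-7 (462, 319.9, 169 and 154, log2 -1.58 ± 0.20) fell. The median of that list was -0.35 at 1 h, -0.73 at 3 h and 0.23 at 6 h. Of 42 transthyretin-like genes, a family of secreted nematode proteins, 9 fell and 0 rose (13 and 0 by the slope), led by ttr-3 (437, 284, 95.0 and 58.6, log2 -2.90 ± 0.25) and ttr-17 (1376, 911, 407 and 244, log2 -2.49 ± 0.24), and ttr-15, one of the bright signals, had 5833, 4662, 2372 and 1643 (log2 -1.83 ± 0.19).

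Many muscle genes, and some nerve and pharynx genes, fell. Of 40 body wall muscle genes 16 fell and 0 rose (28 and 0 by the slope), with 39 below their 0 h level, a median of -0.65 and a summed intensity of 46251 at 6 h and 75748 at 0 h. The myosin heavy chain gene myo-3 had 764 ± 49.1 at 0 h, 616 ± 41.5 at 1 h, 266 ± 25.7 at 3 h and 199 ± 18.8 at 6 h (log2 -1.94 ± 0.16), the attachment gene deb-1, vinculin, had 784, 671, 417 and 372 (log2 -1.08 ± 0.10), unc-87 had 2993, 2872, 1714 and 1429 (log2 -1.07 ± 0.14) and the troponin T gene mup-2 had 3521, 3054, 2111 and 1828 (log2 -0.95 ± 0.07). In all 4 the drop lay mostly between 1 and 3 h. Of 38 neuronal genes 7 fell and 0 rose (18 and 1 by the slope), with a median of -0.59. They included tdc-1, for tyramine synthesis (79.6, 65.1, 41.7 and 28.1, log2 -1.50 ± 0.28), cpx-1, complexin (353, 325, 242 and 156, log2 -1.18 ± 0.17), the GABA enzyme gene unc-25 (564, 555, 417 and 285, log2 -0.99 ± 0.14) and the acetylcholine transporter gene unc-17 (247, 216, 172 and 129, log2 -0.94 ± 0.14). Of 78 neuropeptide genes 2 fell and 0 rose (13 and 1 by the slope), nlp-26 (304, 369, 153 and 46.8, log2 -2.70 ± 0.36) and nlp-67 (log2 -1.71 ± 0.30), and of 42 sensory cilium genes 0 did so and 1 was lower by the slope, klp-11 (559, 459, 420.1 and 377).

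Of 20 pharynx markers 7 fell and 1 rose (9 and 1 by the slope), with a median of -0.09 at 1 h, -0.57 at 3 h and -1.29 at 6 h. Beside phat-2, phat-5 (2263, 1492, 910.0 and 452, log2 -2.32 ± 0.38), phat-4 (678, 585, 377 and 135, log2 -2.33 ± 0.31) and phat-1 (117, 64.4, 42.4 and 23.3, log2 -2.32 ± 0.40) fell, all of the pharyngeal gland. The marker that rose was phat-3 (log2 2.17 ± 0.40), of the same gland, and the gland gene phat-7 rose too (log2 2.29 ± 0.40). The gland genes therefore went both ways. The organ identity gene pha-4 had 156, 132, 119 and 96.2 and passed neither test (adjusted p = 0.122 and 0.0948). Of 25 intestinal fate and brush border genes 1 rose, the cathepsin gene cpr-6 (45.5, 49.1, 107 and 343, log2 2.91 ± 0.43), and 1 fell, the junction gene ajm-1 (357, 309, 226 and 208, log2 -0.78 ± 0.13), with 1 higher and 5 lower by the slope. The gut transcription factor gene elt-2 had 129, 143, 128 and 106 and passed neither test. Hypodermis and seam markers had 0 of 26 higher and 2 lower, tsp-15 (245, 176, 129.5 and 74.6, log2 -1.71 ± 0.25) and vab-10 (737, 507, 267 and 329, log2 -1.16 ± 0.16). By the slope 4 were lower and 3 higher, among the higher ones the nuclear receptor gene nhr-74, which was at the floor at 0 h and 1 h (5, 5, 13.1 and 115). Germ line markers had 0 of 42 called either way and 1 higher and 1 lower by the slope, and early embryo markers had 0 of 27 called and 1 lower by the slope.

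Digestive and defence genes were mixed. Of 45 digestive protease and nuclease genes 5 rose and 0 fell (10 and 3 by the slope). The aspartyl protease genes asp-4 (167, 173, 355 and 886, log2 2.40 ± 0.20) and asp-13 (59.4, 105, 147 and 305, log2 2.36 ± 0.36) and the carboxypeptidase gene pcp-5 (47.2, 52.3, 127 and 178, log2 1.91 ± 0.28) rose with cpr-6. Of 28 nutrient transporter genes 0 rose and 1 fell, the inositol transporter gene hmit-1.2 (272, 206, 95.0 and 68.2, log2 -1.99 ± 0.23), with 1 higher and 3 lower by the slope. The peptide transporter gene pept-1 had 571, 669, 776 and 715 and passed neither test. Of 70 lysozyme, saposin-like and antimicrobial peptide genes 3 rose and 10 fell (5 and 18 by the slope). The lysozyme gene ilys-5 on its brightest probe set (163, 323, 563 and 762, log2 2.23 ± 0.28) and spp-15 (log2 1.43 ± 0.28) rose with cnc-3, and the skin antimicrobial peptide genes nlp-29 (2194, 1918, 1096 and 496, log2 -2.15 ± 0.29), nlp-24 (log2 -2.19 ± 0.16) and nlp-28 (log2 -1.96 ± 0.23) fell with fipr-8 (log2 -1.91 ± 0.22).

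Of 226 C-type lectin genes, 49 of them detected, 4 rose and 1 fell (9 and 8 by the slope), with clec-48 (111, 223, 515 and 687, log2 2.64 ± 0.43) rising and clec-66 (448, 391, 202 and 137, log2 -1.71 ± 0.22) falling. Among detoxification genes, 4 of 72 cytochrome P450 genes fell and 1 rose (6 and 3 by the slope). Of all 17460 genes, 507 fell and 563 rose, and no list was tested against these shares. cyp-35B2 had 427, 273, 51.6 and 24.6 (log2 -4.12 ± 0.48), cyp-35B3 had 211, 175, 45.2 and 29.8 (log2 -2.82 ± 0.25) and, rising, cyp-13A2 had 22.7, 51.2, 121 and 151 (log2 2.73 ± 0.45). UDP-glucuronosyltransferases had 3 of 63 genes higher, led by ugt-39 (57.6, 119, 223 and 212, log2 1.88 ± 0.25), and 1 lower, ugt-13 (659.8, 587, 203 and 140.0, log2 -2.24 ± 0.25), with 7 higher and 13 lower by the slope. Glutathione transferases had 1 of 46 higher, gst-27 (517, 669, 1046 and 1266, log2 1.29 ± 0.24), and 1 lower, gst-38 (399, 374, 219 and 151, log2 -1.40 ± 0.17), with 7 higher and 13 lower by the slope. Antioxidant enzymes had 0 of 26 higher and 2 lower, the glutathione peroxidase gene gpx-5 (618, 335, 193 and 105, log2 -2.55 ± 0.26) and the catalase gene ctl-3 (602, 365, 289 and 318, log2 -0.92 ± 0.16), and 5 were higher and 6 lower by the slope.

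Insulin signalling genes gave no calls between 6 h and 0 h. Of 24 insulin-like peptide genes 9 were detected, 0 rose or fell and 2 were higher by the slope, ins-26 (6.92, 21.6, 36.0 and 38.5) and ins-35 (8.13, 11.4, 17.4 and 50.0), both near background at 0 h. daf-28, a ligand that promotes growth, had 16.9, 31.7, 33.6 and 43.1 and did not pass (adjusted p = 0.112 and 0.0908). ins-6, ins-7 and the receptor gene daf-2 were not detected at 0 h or 6 h. Of 19 genes from the receptor to the FoxO factor 0 rose or fell, and by the slope 2 were higher and 1 lower, the kinase gene akt-1 (336, 253, 190.2 and 189). The FoxO gene daf-16 had 309, 235, 210.2 and 167 and did not pass (log2 -0.89 ± 0.28, adjusted p = 0.122 and 0.0928 by the slope).

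Some targets of DAF-16 were lower. Of 37 genes (27 detected) 0 rose and 4 fell (2 and 11 by the slope), with a median of -0.38. Those that fell were cdr-2, of cadmium response (571, 364, 98.5 and 89.6, log2 -2.67 ± 0.25), dod-6 (1638, 1123, 775 and 465, log2 -1.82 ± 0.20), icl-1 and ctl-3. icl-1 and ctl-3 are also counted in other lists above. Over all 9676 detected genes 507 fell and 1416 were lower by the slope, and the list was not tested against these shares. The metallothionein gene mtl-1 was lower by the slope (289, 242, 135 and 130.3, adjusted p = 0.0139, against 0.0669 for 6 h against 0 h), and the superoxide dismutase gene sod-3 passed neither (119.6, 110.4, 46.3 and 38.3, adjusted p = 0.152 and 0.0823). hsp-12.6 lay at or near the floor of 5 throughout. The alcohol dehydrogenase gene adh-1 had 256, 411, 535 and 319 and passed neither. Of 24 nutrient-sensing genes 0 rose or fell, with 2 higher and 2 lower by the slope, such as the AMPK subunit gene aakg-4 (182, 102, 85.3 and 86.6). The TOR kinase gene let-363 (161, 166, 152 and 161), the S6 kinase gene rsks-1 (69.2, 70.6, 68.2 and 69.7) and the AMPK gene aak-2 (178, 152, 147 and 163) differed between 6 h and 0 h by less than the propagated error. Of 28 autophagy genes 0 rose or fell and 2 were lower by the slope, lgg-1 (3462, 2455, 1852 and 1405) and epg-2 (613, 386, 252 and 175). The lysosomal lipase genes lipl-3 and lipl-4 were not detected at 0 h or 6 h, and hlh-30, their regulator, had 49.6, 43.9, 55.3 and 48.8.

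Developmental timing and regulatory families had few calls. Of 22 heterochronic genes 0 rose or fell, and 2 were higher by the slope, dcr-1 (130.2, 145, 190.2 and 218) and ain-2 (107, 127, 139 and 185) of the small RNA pathway. lin-28 had 83.8, 91.8, 123 and 111, hbl-1 had 32.6, 41.3, 42.9 and 63.3 and lin-42 had 34.4, 20.6, 20.3 and 41.1, and none passed. lin-14, the moult regulator gene nhr-23 (13.8, 12.3, 20.6 and 47.5) and mlt-10 were not detected at 0 h or 6 h. Of 27 genes of TGF-beta, steroid and dauer signalling 2 rose, lon-1 and the receptor gene sma-6 (143, 187, 259.8 and 292, log2 1.04 ± 0.12), 0 fell, and by the slope 4 were higher, including the ligand gene daf-7 (38.3, 74.8, 83.9 and 83.7), and 1 lower. Nuclear hormone receptors had 1 of 269 higher, nhr-68, and 1 lower, nhr-120 (155, 113, 77.2 and 66.0, log2 -1.23 ± 0.19), with 14 and 14 by the slope. Wnt pathway genes had 0 of 27 higher and 1 lower, the Frizzled gene cfz-2 (255, 209, 151 and 114, log2 -1.17 ± 0.16), with 2 and 4 by the slope. F-box genes had 2 of 305 higher and 1 lower (5 and 7 by the slope) and MATH and BTB genes 1 of 95 higher and 1 lower (1 and 6). Both families lay mostly below detection.

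Starved larvae served to ask which of these changes differed with food. The fed change from 0 to 6 h minus the starved change from 0 to 6 h was tested on the log2 scale with the deposited errors and 8 degrees of freedom, and it called 428 of 22548 probe sets (1.9%), 258 with the fed change above the starved change (1.14%) and 170 below it (0.754%). Among the 258, the level was up in fed and down in starved larvae for 211, and among the 170 it was down in fed and up in starved larvae for 108. Of the 258, 145 had risen and 3 had fallen in fed larvae, and of the 170, 4 had risen and 70 had fallen. Most of the 1385 calls in fed larvae therefore did not pass this test of the difference. Both tests use the fed 6 h and 0 h means, so the match in direction is in part built in. Of the 706 rises 509 had the same sign in starved larvae, with a median starved change of 0.21, and of the 679 falls 636 did, with a median of -0.75. Over the 9676 detected genes the median starved change was -0.03. The share of equal signs over all detected probe sets was not counted.

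Among genes also called in fed larvae, enzymes of fatty acid breakdown were of those whose fed change lay furthest above the starved change. dpy-6 had a fed minus starved difference of 5.09 ± 0.91 (adjusted p = 0.041), with 299 at 6 h and 11.2 at 0 h in fed larvae and 40.6 at 6 h and 51.5 at 0 h in starved larvae. acox-1.2 differed by 4.47 ± 0.75, with 552 at 6 h and 22.2 at 0 h in fed and 26.3 at 6 h and 23.5 at 0 h in starved larvae. A starved change smaller than its own error was also seen for acdh-2 (4.02 ± 0.62; 287 in fed and 19.2 in starved larvae at 6 h) and pugs-2 (4.43 ± 0.66; 812 in fed and 59.9 in starved larvae at 6 h). ilys-5, on another probe set than above (4.23 ± 0.83), had 764 at 6 h and 160.0 at 0 h in fed and 22.1 at 6 h and 86.7 at 0 h in starved larvae, and acox-1.3 (3.98 ± 0.47) had 214 at 6 h and 66.5 at 0 h in fed and 24.9 at 6 h and 122 at 0 h in starved larvae, up with food and down without it. mua-6 (3.59 ± 0.35) had 748 at 6 h and 234 at 0 h in fed and 96.9 at 6 h and 366 at 0 h in starved larvae. pho-11 was higher at 6 h in both, by 4.77 in fed and 2.20 in starved larvae, and differed by 2.57 ± 0.47. Not every enzyme of fatty acid breakdown with a large fed rise was of this kind. ech-7 had 696 at 6 h and 27.5 at 0 h in starved larvae, a difference of -1.10 ± 0.75 that did not pass (adjusted p = 0.662). Of the other large fed rises, cnc-3 and pud-3 were also higher at 6 h in starved larvae (log2 3.72 and 2.96), and their differences did not pass.

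Among genes also called in fed larvae, grd-5, the glyoxylate enzyme gene icl-1 and col-77 had fed changes furthest below the starved change. icl-1 differed by -3.38 ± 0.47 (adjusted p = 0.0248), with 441 at 6 h and 1677 at 0 h in fed and 4488 at 6 h and 1637 at 0 h in starved larvae on the probe set with the largest difference. The bestrophin gene best-24 (-2.73 ± 0.25) had 96.3 at 6 h and 223 at 0 h in fed and 604 at 6 h and 210.1 at 0 h in starved larvae, grd-5 (-3.64 ± 0.43) had 64.7 at 6 h and 513 at 0 h in fed and 605 at 6 h and 384 at 0 h in starved larvae, and the amino acid transporter family gene slc-36.5 (-2.72 ± 0.32) had 54.3 at 6 h and 228 at 0 h in fed and 512 at 6 h and 326 at 0 h in starved larvae. elo-5 was higher at 6 h in both, with 1414 at 6 h in fed and 1923 in starved larvae, but its starved level at 0 h was 71.6 against 261 in fed, which gave a difference of -2.31 ± 0.35. col-77 (-2.78 ± 0.34), the ATPase gene catp-3 (-2.60 ± 0.51) and col-91 (-2.29 ± 0.37) fell in fed larvae and were lower at 6 h in starved larvae too. Their 0 h levels in fed and starved larvae, which enter the difference, were 1814 and 655 for col-77, 533 and 247 for catp-3 and 630 and 558 for col-91. At 6 h in fed larvae catp-3 was not detected (35.8). The acyl-CoA synthetase gene acs-2, which was not called in fed larvae, lay further below than any of these. It was not detected at either time in fed larvae (79.8 at 6 h and 58.4 at 0 h) and had 1217 at 6 h and 14.6 at 0 h in starved larvae, a difference of -5.93 ± 0.95 (adjusted p = 0.0322).

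**Figure D5:**
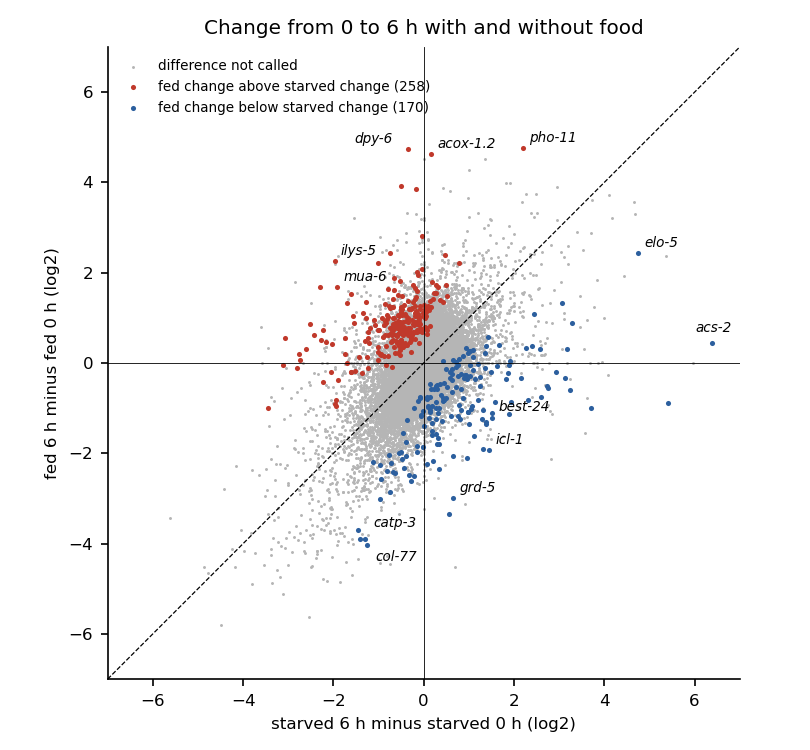
Each point is a probe set, with the log2 change from 0 to 6 h in fed larvae on the vertical axis and in starved larvae on the horizontal axis; the dashed line marks equal change. Red points are the 258 with the fed change above the starved change and blue points the 170 below it, among them dpy-6 at 4.74 in fed larvae and icl-1 at -1.93.

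Several lists of protein production had genes with the fed change above the starved change. Over all 22548 probe sets the share was 1.14% above and 0.754% below, but that total includes undetected probe sets, of which most of these lists hold few. Adjusted over the 13359 detected probe sets alone, 537 lay above and 337 below. No list was tested against these shares. Cytosolic ribosomal proteins had 0 genes above and 0 below, and the mitochondrial ribosome had 2 above and 1 below of 58. Protein secretion had 11 of 36 genes with the fed change above the starved change and 0 below, with a median change of 0.64 in fed and -0.17 in starved larvae. In the same order of above and below, and with the fed and then the starved median in brackets, chaperones had 11 and 0 of 42 (0.59 and -0.19), ribosome biogenesis 7 and 0 of 51 (0.64 and 0.03), and translation factors 7 and 0 of 47 (0.72 and -0.05). tRNA synthetases had 6 and 0 of 20 (0.91 and 0.23) and the proteasome 4 and 0 of 33 (0.99 and 0.22). fib-1 differed by 1.67 ± 0.18 (adjusted p = 0.016), with 4291 at 6 h and 3135 at 0 h in fed and 1295 at 6 h and 3018 at 0 h in starved larvae. Fatty acid breakdown had 12 genes above and 4 below of 73. Body wall muscle had 2 above and 0 below of 40, with a median of -0.65 in fed and -0.74 in starved larvae, and collagens had 0 and 5 of 159 (-0.74 in fed and -0.46 in starved larvae). Fatty acid synthesis had 1 and 1 of 31, with medians of 1.25 in fed and 0.69 in starved larvae.

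The fed and starved samples labelled 0 h were not alike, and the fed and the starved arrays shared 0 hybridization days of 3 each, so day and food cannot be told apart in these levels. grd-14 had 666 in fed and 147 in starved larvae at 0 h, col-77 had 1814 in fed and 655 in starved larvae, and pho-11 had 77.0 in fed and 276 in starved larvae. In the median over the 679 falls the starved 0 h level lay at -0.20 (log2) relative to fed 0 h, over the 706 rises at 0.08, and over all 12769 detected probe sets at 0.02. The calls had themselves used the fed 0 h sample, so part of this is built in. The part of the time of collection in these differences was not tested.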

How the data were processed

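RNA of 18 conditions was hybridized to Affymetrix C. elegans arrays. Per the notes in the deposited tables, the authors gave each condition the mean intensity of 3 biological replicates on a linear scale, raised values below 5 to 5, and deposited an error of each mean in the same intensity unit; neither the computation of that error nor the normalization of arrays is stated there. The deposited detection score is a p of signal against background, detected under 1e-10 by the authors' rule, and the deposited p-value table holds the authors' t-test between neighbouring conditions. The number of arrays limits precision, and the p computed here measures only the deposited error, which may be technical.

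Of the probe sets 77 controls were left out. Differences were divided by combined errors (t distribution, 4 degrees of freedom for 2 conditions and 8 for 4) and adjusted by the Benjamini-Hochberg method at 0.05, in Python 3.11.15 with numpy 2.4.6, pandas 2.3.3 and scipy 1.17.1; limma 3.58.1 in R 4.3.3 gave a slope as an alternative. The planned test of 6 h against 0 h over all probe sets called 0, so the same test on detected probe sets sets the wording, and the error-based slope was added after the data were seen. The scripts were tested on simulated data.

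Probe sets were named through the deposited WormBase WS180 mapping and current RefSeq symbols: 20319 of 22548 mapped to 1 gene and 19978 had a current symbol. A gene's list value is its brightest probe set. A gene named by the size of its change is given on its called probe set with the largest change. The text names the 15 largest rises and falls with a public name that were detected in the higher condition, the 8 largest differences from starved larvae each way among genes also called in fed 6 h against 0 h, up to 4 called genes per list and direction (by the slope where fewer were called) and a fixed set of names. The conditions, lists and tests were chosen with earlier results of these data known. Promoter motifs were not analysed here.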

Additional observations from a re-analysis of the deposited data

Results flagged for a closer look

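The change from 0 to 6 h differed between fed and starved larvae, by the test of the difference itself, for 428 of 22548 probe sets. Among the genes named from this test, all also called in fed larvae at 6 h against 0 h, the fed change minus the starved change on the log2 scale was 5.09 ± 0.91 for dpy-6, 4.47 ± 0.75 for acox-1.2, 4.43 ± 0.66 for pugs-2 and 4.23 ± 0.83 for ilys-5. It was 4.02 ± 0.62 for acdh-2, 3.98 ± 0.47 for acox-1.3, 3.59 ± 0.35 for mua-6 and 2.57 ± 0.47 for pho-11. Below the starved change it was -3.64 ± 0.43 for grd-5, -3.38 ± 0.47 for icl-1, -2.78 ± 0.34 for col-77 and -2.73 ± 0.25 for best-24. It was -2.72 ± 0.32 for slc-36.5, -2.60 ± 0.51 for catp-3, -2.31 ± 0.35 for elo-5 and -2.29 ± 0.37 for col-91. Fed and starved arrays shared 0 hybridization days, and the part of the day in these differences was not tested.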

How the results depend on the processing

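The count of calls between 6 h and 0 h depended on the setting. Over all 22548 probe sets the count was 0, against 1385 over detected probe sets only, 5854 with a normal distribution, 2986 by a limma slope over the 4 times and 4314 by the error-based slope. Over detected probe sets the 1385 became 6296 with a normal distribution, 5329 by the error-based slope and 5962 by the limma slope, and with errors of at least 10% of the mean 0 were called, with a smallest adjusted p of 0.115. The log2 scale gave 1343, quantile normalization 1443 (788 of them higher) and detection in both conditions 1438. The error-based slope's 4314 became 2464 with errors of at least 10%, 335 without fed 0 h and 155 without fed 6 h. The fed minus starved change gave 956 calls in place of 428 on the linear scale and 874 over detected probe sets. The single intervals and the contrast of 1 h and 3 h against 0 h and 6 h gave 0 calls under each alternative run. Of the 30 genes with the largest changes, 25 passed on the log2 scale (not cpg-9, nas-30, dct-5, nas-5 and nas-38), 29 by the limma slope (not tba-8) and 0 with errors of at least 10%, and of the 16 genes named for the starved difference 14 passed on the linear scale (not elo-5 and col-91) and 14 under quantile normalization (not ilys-5 and catp-3). At most 2 of 57 list medians changed sign under an alternative, none of them 0.3 or more in size. The median of the cytosolic ribosomal proteins moved from 0.00 to 0.14 under quantile normalization, by more than the median propagated error of its genes. Beyond what each alternative changes by construction, the cause was not tested. No paired analysis was possible because each condition entered as 1 deposited mean, and the columns carry no replicate numbers; for the same reason no replicate could be left out. Probe sets near the floor of 5 limit the size of the largest changes.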
